A study of Mus musculus with 12 samples.

Results

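Hspa5, Hsp90b1, Calr, Pdia4, Dnajb9, Sdf2l1, Creld2, Herpud1, Edem1 and Xbp1 form a set of endoplasmic reticulum (ER) folding and quality-control genes together with the transcription factor that drives many of them. They were chosen by symbol, from gene probes whose RefSeq accession maps to the 10 names. They are 10 of 13891 genes tested in mouse liver. All 10 were well above background on all 12 arrays. Of them 9 were read by a single probe each, and Dnajb9 by a pair, so that 11 probes carry the set.

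Proteins that are secreted or inserted in membranes fold in the ER with the help of chaperones, and those that fail are pulled back into the cytosol and destroyed by ER-associated degradation (ERAD). Unfolded proteins are sensed by IRE1 (the product of Ern1), ATF6 and PERK (Eif2ak3). IRE1 cuts a short intron out of the Xbp1 mRNA, the cleaved ATF6 fragment enters the nucleus, and both resulting factors raise chaperone and ERAD genes, while PERK slows translation and favours ATF4 and its targets. Hepatocytes make most plasma proteins and keep a large ER, in which XBP1 is also known to support secretion and lipid synthesis.

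The study set male C57BL/6NJcl mice on a diet that causes steatohepatitis against mice on ordinary feed. The CDAHFD groups received a choline-deficient, L-amino acid-defined diet with 60 kcal% fat and 0.1% methionine, in which choline, methionine and fat content differ together. Control groups received CE-2 chow, and livers of both diets were taken after 1, 2 and 6 weeks, at ages of 7, 8 and 12 weeks, with 2 arrays per group and 150 ng of total RNA labelled per array. The labels do not say whether replicates came from separate mice, so p-values measure the spread between these samples, which may be technical. Slide 1 held all arrays of 1 and 2 weeks and slide 2 those of 6 weeks, so each diet difference lies within a slide. Weeks 1 and 2 share a slide, while week 6 and its slide cannot be told apart. Control arrays lay in slide rows 1 and 3 and CDAHFD arrays in rows 2 and 4, so diet and row cannot be told apart either. Between 46.9% and 50.9% of probes were well above background in CDAHFD livers, against 41.6% to 45.7% in control livers, and the number of arrays limits the precision. Replicate 1 of the control livers at 1 week had 17 regions of dim spots, which hold the probes of 434 genes, and its group's replicates differed with an SD of 0.85, against 0.29 to 0.49 in the other groups. That array stood at 82.1 on the second principal component, where the other 11 arrays lay between -27.1 and 4.82.

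Promoter sequences were taken from RefSeq, mouse build GRCm38.p6, and matched by symbol for all 10 genes, as windows from 250 bases before to 50 bases after the annotated start. They were searched on both strands for the ER stress element (ERSE: CCAAT, 9 bases of any kind, then CCACG), which binds ATF6 together with NF-Y, for its short form (ERSE-II: ATTGG, 1 base of any kind, then CCACG) and for the unfolded protein response element (UPRE, TGACGTGG). An ERSE stood in the windows of Hspa5, Hsp90b1, Creld2 and Calr, 4 of 10 genes, against 0.119% of 32851 windows of the same length in the whole table. Herpud1 held an ERSE-II, against 0.0365% of all windows, and the UPRE was in 0 of 10, against 0.676% of all windows. The 250 bases before the start of these 5 genes are printed on the strand of the gene with the matches in capitals, because they are the stretches that hold the elements, and Xbp1 is added as a gene with no match. Hspa5 is from chr2:34771840-34772089 on the plus strand, Hsp90b1 from chr10:86705445-86705694 on the minus strand, Creld2 from chr15:88819396-88819645 on the plus strand, Calr from chr8:84846932-84847181 on the minus strand, Herpud1 from chr8:94386179-94386428 on the plus strand and Xbp1 from chr11:5520391-5520640 on the plus strand.
Hspa5: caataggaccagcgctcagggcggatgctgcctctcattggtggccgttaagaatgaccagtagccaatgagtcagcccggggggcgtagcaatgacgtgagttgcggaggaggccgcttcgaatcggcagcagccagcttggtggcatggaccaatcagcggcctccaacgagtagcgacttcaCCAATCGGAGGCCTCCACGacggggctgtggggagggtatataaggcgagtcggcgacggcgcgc
Hsp90b1: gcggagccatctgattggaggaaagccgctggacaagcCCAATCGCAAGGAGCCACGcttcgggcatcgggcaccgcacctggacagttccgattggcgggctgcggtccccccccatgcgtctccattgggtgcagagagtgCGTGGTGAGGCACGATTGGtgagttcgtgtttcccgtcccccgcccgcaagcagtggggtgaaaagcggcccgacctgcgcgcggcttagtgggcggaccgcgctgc
Creld2: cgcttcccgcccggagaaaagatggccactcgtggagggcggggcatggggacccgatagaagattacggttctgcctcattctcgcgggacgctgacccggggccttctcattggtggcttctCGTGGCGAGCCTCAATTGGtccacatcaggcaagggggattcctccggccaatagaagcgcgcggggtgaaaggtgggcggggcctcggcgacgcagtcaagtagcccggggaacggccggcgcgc
Calr: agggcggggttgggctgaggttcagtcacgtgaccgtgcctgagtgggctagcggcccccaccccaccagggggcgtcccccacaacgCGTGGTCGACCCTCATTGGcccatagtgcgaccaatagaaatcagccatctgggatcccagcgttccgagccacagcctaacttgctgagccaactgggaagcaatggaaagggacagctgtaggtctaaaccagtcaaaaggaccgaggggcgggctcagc
Herpud1: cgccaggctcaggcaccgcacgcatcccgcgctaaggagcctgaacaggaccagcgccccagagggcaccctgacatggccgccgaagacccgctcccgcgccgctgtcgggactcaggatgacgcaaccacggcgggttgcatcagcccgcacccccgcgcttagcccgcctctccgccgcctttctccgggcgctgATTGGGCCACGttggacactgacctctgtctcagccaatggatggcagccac
Xbp1: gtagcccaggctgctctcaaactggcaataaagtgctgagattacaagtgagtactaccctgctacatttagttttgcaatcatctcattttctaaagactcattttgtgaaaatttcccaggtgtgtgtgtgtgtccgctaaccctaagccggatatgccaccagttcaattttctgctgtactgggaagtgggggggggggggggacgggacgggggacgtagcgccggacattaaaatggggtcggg

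Counted from 0 at the annotated start, the ERSE of Hspa5 ran from -65 to -47 and that of Calr from -162 to -144. Creld2 held its match from -126 to -108, while Hsp90b1 held a pair, from -212 to -194 and from -107 to -89. The ERSE-II of Herpud1 ran from -52 to -42. The ERSE contains CCAAT and CCACG, which alone are common letters, found in 37.4% and 32.8% of all windows. A match in these letters describes the window and is not a measured binding site. The set was chosen by name from a pathway that ATF6 and XBP1 are known to raise, so the shares are no test of enrichment. The windows of Dnajb9, Pdia4, Sdf2l1, Edem1 and Xbp1 hold none of the 3 full elements.

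**Figure D1:**
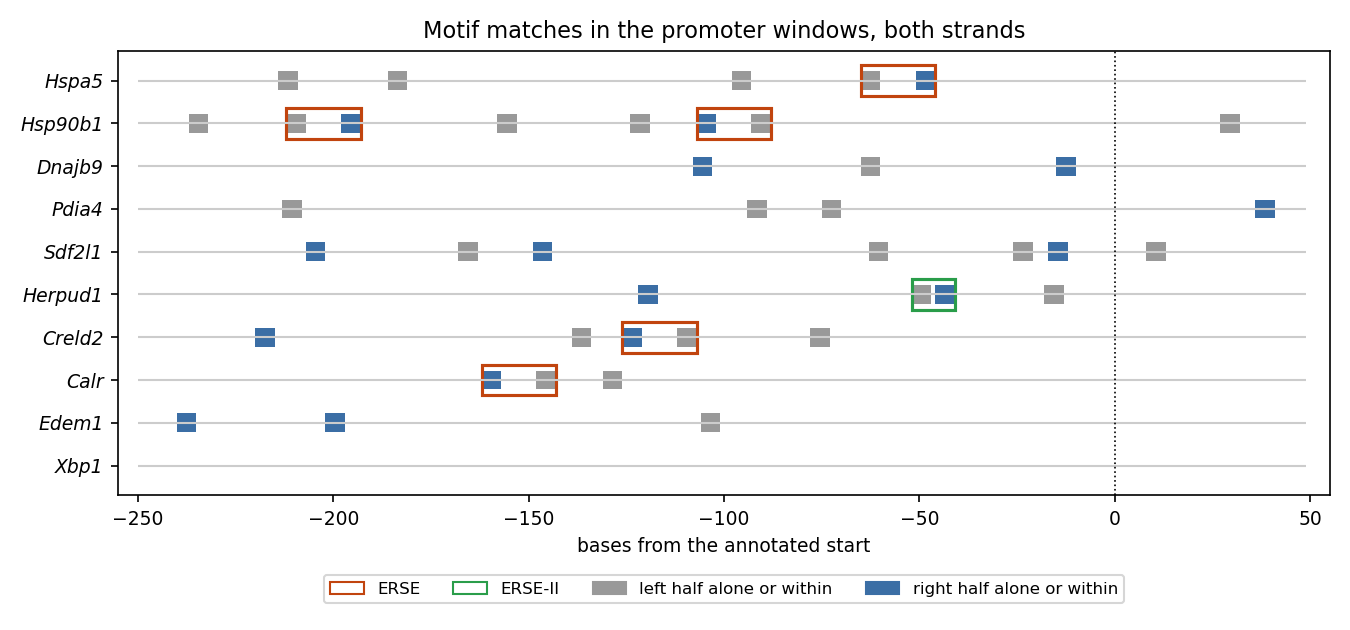
Matches in the promoter window of each of the 10 genes, with distance in bases from the annotated start on the x axis and 1 line per gene. Open red boxes are ERSE matches (5, in 4 genes), the open green box is the ERSE-II of Herpud1, and filled grey and blue boxes are matches to the left and right outer 5 bases of the element, which also occur alone.

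After 2 weeks the mean level of each of the 10 genes was lower in CDAHFD livers than in control livers, relative to all genes. Of the 10 genes 6 fell, where 14.6% of all genes tested fell and 37.7% were called in either direction, namely Herpud1, Xbp1, Edem1, Creld2, Hspa5 and Hsp90b1, and 0 rose. At 1 week Herpud1 and Calr fell, which is 2 of 10 where 15.2% of all genes fell and 40.9% were called. At 6 weeks Herpud1, Xbp1 and Edem1 fell, which is 3 of 10 where 16.1% of all genes fell and 40.6% were called. Averaged over the 3 weeks, 8 of 10 fell, where 25.6% of all genes fell and 61.2% were called, and the exceptions were Pdia4 and Sdf2l1. The 2 genes at 1 week are near the share of all genes, and the counts at 2 weeks and in the average are above it. However, most of the set is bright, and bright genes fell more often than others, as given further on. The set was also chosen with earlier results of these data known, so counts above the share are no test of it. Under quantile normalization the counts at 2 weeks and in the average were near the share. They were 1 of 10 at 2 weeks, where 15.7% of all genes fell, and 3 of 10 in the average, where 28.7% fell. No gene of the set rose at any week by limma's test on all genes with Benjamini-Hochberg adjustment, and 0 were higher at an unadjusted p under 0.05.

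Differences are given on the log2 scale as CDAHFD minus control, after subtracting the median difference over the genes tested (0.13 at 1 week, 0.06 at 2 weeks, 0.04 at 6 weeks and 0.08 for the average). Fold sizes of the 10 genes come from these relative differences and are not ratios of the printed levels. The least folds given for Atf3 and Kdelr3 come from levels without that subtraction. The error is the SE of the fit with n = 2 arrays per group, the adjusted p (limma) tests the difference before that median is taken off, and a gene is called at an adjusted p under 0.05. The median difference of the 10 genes was -0.46 at 1 week, -0.72 at 2 weeks and -0.48 at 6 weeks, and 10, 10 and 9 of them lay below the median of all genes. At 2 weeks all 10 lay below it under every setting and left-out array. At 1 week it was 6 of 10 with normexp background and 8 of 10 both with quantile normalization (Hspa5 and Xbp1 above) and with no filter on dim probes. At 6 weeks it was 7 of 10 with quantile normalization (Hspa5, Hsp90b1 and Pdia4 above), 8 of 10 with no filter, and 6 of 10 without control replicate 2 or 7 of 10 without CDAHFD replicate 1. Both CDAHFD arrays lay below both control arrays for 7, 9 and 4 of the 10 genes, against 30.8%, 32% and 32.5% of all genes at 1, 2 and 6 weeks.

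**Figure D2:**
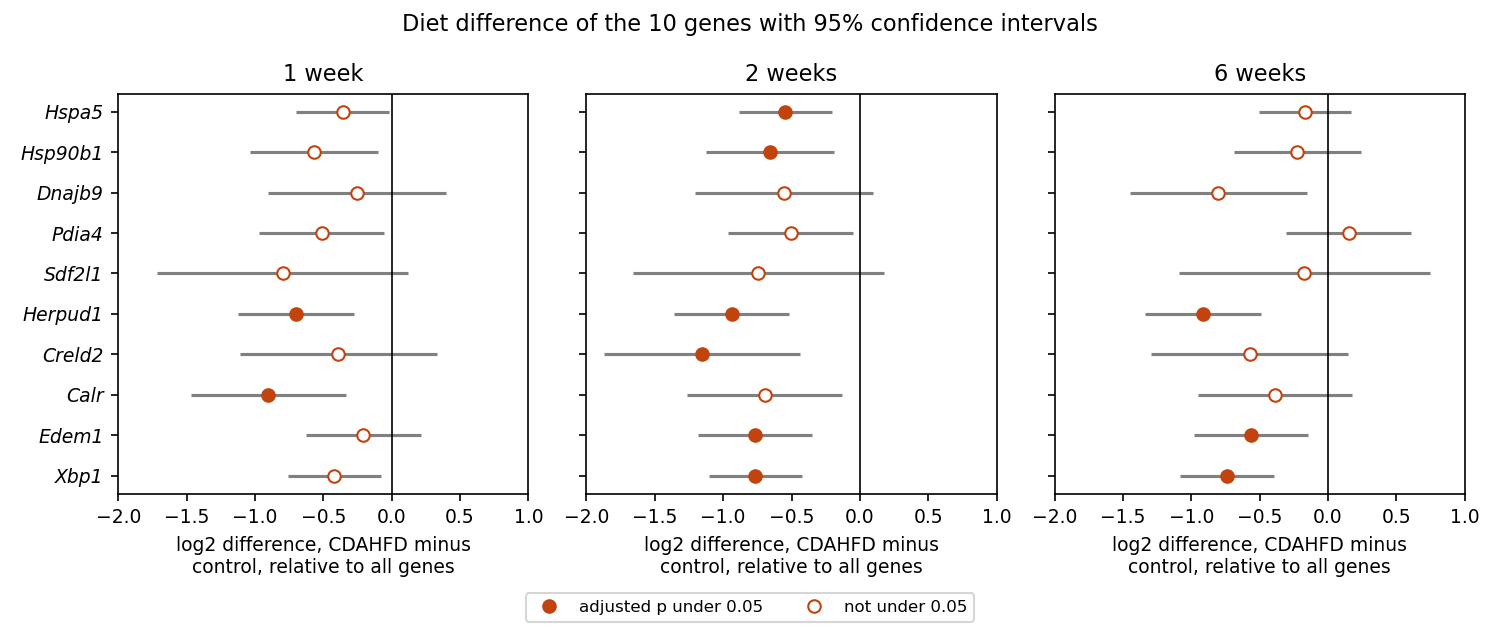
Diet difference of each gene at 1, 2 and 6 weeks (log2, CDAHFD minus control, less the median of all genes, x axis) with its 95% confidence interval (bars). Filled dots have an adjusted p under 0.05, and every dot but that of Pdia4 at 6 weeks (0.15) lies left of 0.

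Hspa5 encodes BiP, the abundant HSP70 chaperone of the ER lumen that also holds the 3 stress sensors inactive. Levels are log2 intensities relative to each array's 75th percentile and may be compared between arrays but not between genes. At 1 week Hspa5 read 3.92 and 3.82 in CDAHFD livers, against 4.07 and 4.14 in control livers. At 2 weeks Hspa5 read 3.65 and 3.71 in CDAHFD livers, against 4.28 and 4.06 in control livers. Both CDAHFD arrays lay below both control arrays at those weeks, and at 6 weeks the groups overlapped, with 3.58 and 3.80 in CDAHFD livers, against 3.59 and 4.05 in control livers. Its difference passed the test at 2 weeks (-0.55 ± 0.15, adjusted p = 0.0286), a level 1.46-fold lower in CDAHFD livers, and not at 1 week (-0.36, adjusted p = 0.249) or at 6 weeks (-0.17, adjusted p = 0.53). The 2-week call ended without either CDAHFD array of that week or without its control replicate 1 (adjusted p from 0.0911 to 0.168).

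Hsp90b1 encodes GRP94, the HSP90 chaperone of the ER, with clients among integrins and Toll-like receptors. Its control arrays at 1 week stood apart from each other, with 3.82 and 3.52 in CDAHFD livers, against 4.46 and 3.77 in control livers. The higher of them is the array with dim regions, and the probe lies in such a region. At 2 weeks Hsp90b1 read 3.28 and 3.34 in CDAHFD livers, against 4.03 and 3.79 in control livers, with no overlap. At 6 weeks the CDAHFD arrays read 3.34 and 3.47, against 3.43 and 3.75 in control livers, and the groups overlapped. It fell at 2 weeks (-0.66 ± 0.21, adjusted p = 0.0454), close enough to the threshold that leaving out any of 10 of the 12 arrays ended the call, with adjusted p from 0.0507 to 0.216. Its difference at 1 week was -0.57 (adjusted p = 0.117) and became -0.21 (adjusted p = 0.694) with the dim regions left out, whereas without control replicate 2 of that week it was called (adjusted p = 0.00948).

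Calr encodes calreticulin, a lectin chaperone that binds calcium and monoglucosylated glycoproteins. It was already apart at 1 week, with 2.43 and 2.58 in CDAHFD livers, against 3.22 and 3.34 in control livers. The difference of -0.90 ± 0.25 (adjusted p = 0.0336) corresponds to a level 1.87-fold lower in CDAHFD livers, and the call ended without any of 6 arrays, among them all 4 of that week (adjusted p from 0.0503 to 0.162). At 2 weeks Calr read 2.10 and 2.20 in CDAHFD livers, against 3.03 and 2.56 in control livers, again without overlap (-0.70, adjusted p = 0.0727, and 0.00545 or 0.00546 without either CDAHFD array of 6 weeks). At 6 weeks the CDAHFD arrays spread widely, at 1.89 and 2.80, against 2.64 and 2.75 in control livers. The 6-week difference was -0.39 (adjusted p = 0.298), and without the CDAHFD array at 2.80, replicate 2, the gene was called there as well (adjusted p = 0.00577).

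Pdia4 encodes a protein disulfide isomerase of the ER. It read -0.92 and -1.06 in CDAHFD livers at 1 week, against -0.61 and -0.60 in control livers. At 2 weeks it read -1.24 and -1.16 in CDAHFD livers, against -0.64 and -0.86 in control livers. Neither difference passed the test, at -0.51 (adjusted p = 0.16) and -0.50 (adjusted p = 0.115), although the groups did not overlap at either week. At 6 weeks the replicates of both diets disagreed, with -1.11 and -0.63 in CDAHFD livers, against -1.37 and -0.75 in control livers. The 6-week difference of 0.15 (adjusted p = 0.496, 95% interval -0.31 to 0.61) is the single positive value of the set.

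**Figure D3:**
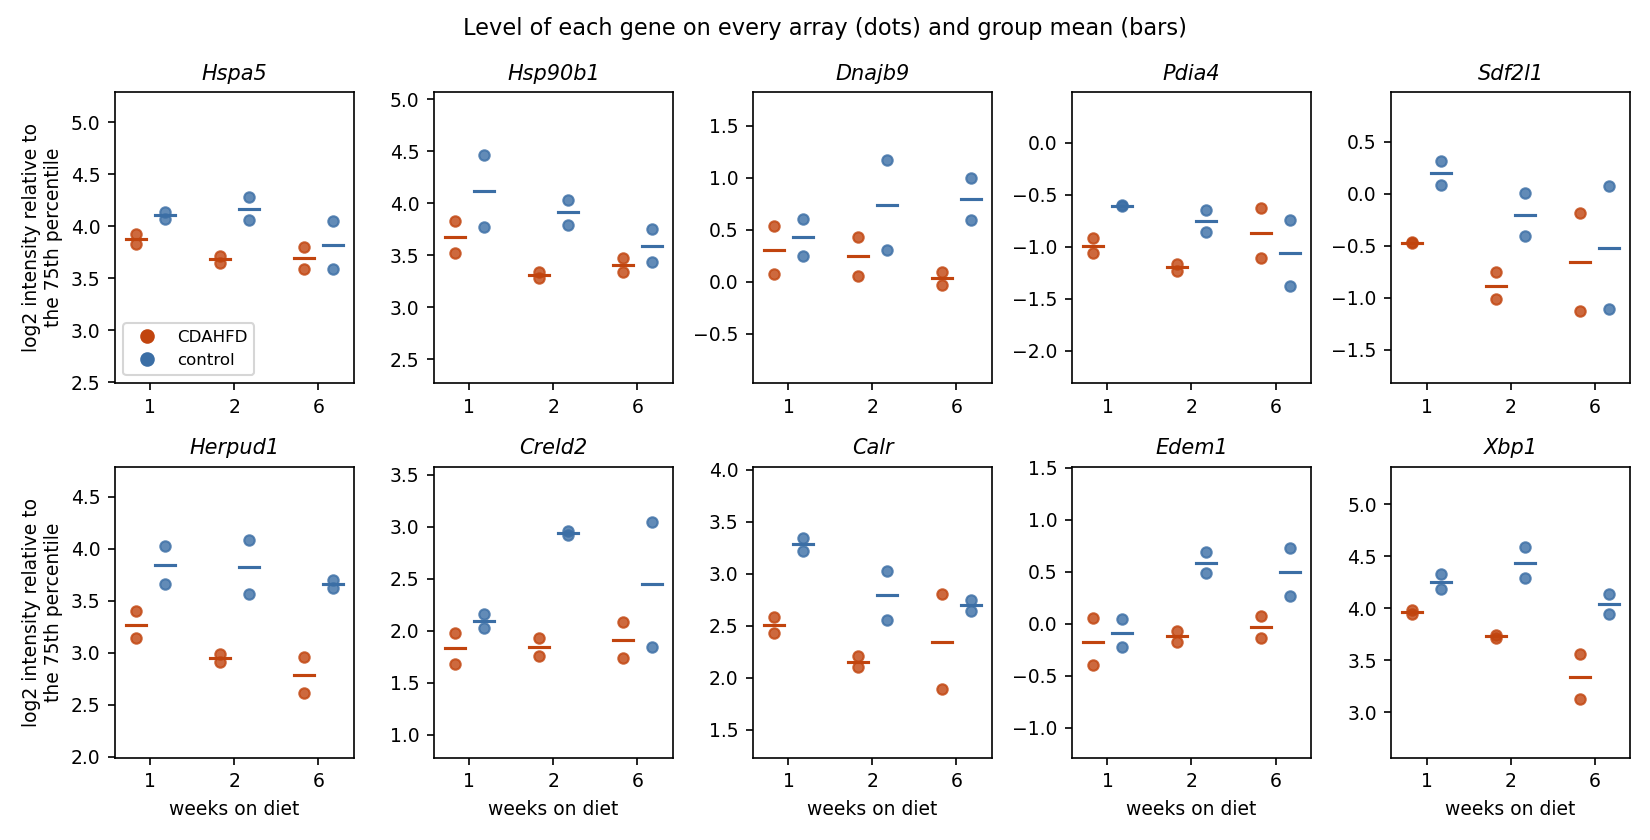
Level of each gene on every array (dots, log2 intensity relative to the array's 75th percentile, y axis, each panel spanning the same height) by weeks on diet (x axis), with group means as bars. CDAHFD livers (red) stand left of control livers (blue) at each week, and the diets overlap for no gene but Dnajb9 at 2 weeks.

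Among the cochaperones, Creld2, an ER-resident protein with disulfide isomerase activity, had the lowest difference of the set. At 1 week it read 1.98 and 1.68 in CDAHFD livers, against 2.16 and 2.03 in control livers. At 2 weeks its CDAHFD arrays read 1.93 and 1.76, against 2.96 and 2.92 in control livers. The replicates of each diet lay close together at 2 weeks, and the difference of -1.16 ± 0.32 (adjusted p = 0.0236) is a 2.23-fold lower level in CDAHFD livers, lower than that of all but 3.33% of genes. The call ended without any of the 4 arrays of that week (adjusted p from 0.0704 to 0.114). At 6 weeks the CDAHFD arrays read 2.09 and 1.74, against 1.85 and 3.05 in control livers, so that a single control array, replicate 1, lay within the CDAHFD range. The difference there was -0.57 (adjusted p = 0.212), and without that control array the gene was called (adjusted p = 0.00181). Its average over weeks (-0.71 ± 0.18, adjusted p = 0.0145) was not called without CDAHFD replicate 2 of 6 weeks (adjusted p = 0.056).

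Dnajb9 encodes ERdj4, a J-domain partner of BiP and a classical target of spliced XBP1. Its arrays read 0.54 and 0.07 in CDAHFD livers at 1 week, against 0.25 and 0.61 in control livers. At 2 weeks the values were 0.05 and 0.43 in CDAHFD livers, against 0.31 and 1.17 in control livers. The diets overlapped at both of these weeks and separated at 6 weeks, with 0.09 and -0.03 in CDAHFD livers, against 0.60 and 1.00 in control livers. No single week passed the test, and the lowest adjusted p was 0.0605, at 6 weeks (-0.80 ± 0.29), where it was called without either control array of 2 weeks (adjusted p = 0.018 and 0.0182). At 2 weeks it was called without control replicate 1 (adjusted p = 0.0278). The average over weeks did (-0.54 ± 0.17, adjusted p = 0.036), a call that ended without any of 7 of the 12 arrays (adjusted p from 0.0635 to 0.0925). The other probe of Dnajb9 was not called in the average (-0.31, adjusted p = 0.15), so that call rests on 1 of 2 probes. It gave 0.046, -0.62 and -0.34 at 1, 2 and 6 weeks, so the probes disagreed in sign at 1 week, where neither passed the test.

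Sdf2l1 encodes a BiP cofactor that keeps ER proteins from aggregating. It read -0.46 and -0.47 in CDAHFD livers at 1 week, against 0.32 and 0.086 in control livers. At 2 weeks the arrays read -1.01 and -0.76 in CDAHFD livers, against 0.0046 and -0.40 in control livers. The diets were apart at both weeks, but the replicates at 6 weeks differed by more than either gap, with -1.12 and -0.19 in CDAHFD livers, against -1.11 and 0.072 in control livers. Its SE of 0.40 was the widest of the set, and neither -0.80 at 1 week (adjusted p = 0.213) nor -0.74 at 2 weeks (adjusted p = 0.215) passed the test. Over the 12 arrays Sdf2l1 and Pdia4 had the highest correlation of any pair in the set (r = 0.931), a description over arrays that share diet, week and slide. Without CDAHFD replicate 2 or control replicate 1 of 6 weeks both genes were called in the average over weeks, Sdf2l1 with adjusted p = 0.0359 and 0.00799 and Pdia4 with 0.0431 and 0.0234, against 0.0931 and 0.143 with all arrays.

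Herpud1 encodes a membrane protein that organises the HRD1 ubiquitin ligase complex of ERAD. It was the one gene of the set called at every week. At 1 week it read 3.14 and 3.39 in CDAHFD livers, against 3.66 and 4.02 in control livers. At 2 weeks it read 2.99 and 2.90 in CDAHFD livers, against 3.57 and 4.08 in control livers. At 6 weeks it read 2.96 and 2.61 in CDAHFD livers, against 3.70 and 3.62 in control livers. The diets did not overlap at any week. Its level was 1.63-fold lower in CDAHFD livers at 1 week (-0.70 ± 0.19, adjusted p = 0.0348), 1.92-fold lower at 2 weeks (-0.94 ± 0.19, adjusted p = 0.0046) and 1.88-fold lower at 6 weeks (-0.91 ± 0.19, adjusted p = 0.00427). The calls at 2 and 6 weeks held without each of the 12 arrays in turn, and that at 1 week ended without any of 5 of them (adjusted p from 0.0501 to 0.21).

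Edem1 encodes a mannosidase-like protein that hands misfolded glycoproteins to ERAD, and is a known target of XBP1. At 1 week the diets overlapped, with 0.05 and -0.39 in CDAHFD livers, against -0.23 and 0.05 in control livers. At 2 weeks it read -0.17 and -0.07 in CDAHFD livers, against 0.69 and 0.48 in control livers. At 6 weeks it read -0.14 and 0.07 in CDAHFD livers, against 0.27 and 0.72 in control livers. It was lower without overlap at 2 weeks (-0.77 ± 0.19, adjusted p = 0.0136) and at 6 weeks (-0.56 ± 0.19, adjusted p = 0.0466), while the difference at 1 week was -0.21 (adjusted p = 0.756). The 6-week call ended without any of 7 arrays (adjusted p from 0.0534 to 0.317) and the 2-week call without CDAHFD replicate 1 or control replicate 1 of that week (adjusted p = 0.0778 and 0.0883). In control livers Edem1 was 0.67 higher at 2 weeks than at 1 week relative to all genes, and weeks within control livers did not pass the test for it (adjusted p = 0.0658).

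Xbp1 encodes the transcription factor itself, and the array gives 1 intensity for its mRNA without a measure of splicing. At 1 week it read 3.98 and 3.94 in CDAHFD livers, against 4.32 and 4.19 in control livers. At 2 weeks it read 3.75 and 3.71 in CDAHFD livers, against 4.58 and 4.29 in control livers. At 6 weeks it read 3.13 and 3.56 in CDAHFD livers, against 3.95 and 4.14 in control livers. All CDAHFD arrays lay below the control arrays of the same week. It was 1.70-fold lower in CDAHFD livers at 2 weeks (-0.76 ± 0.15, adjusted p = 0.00476) and 1.67-fold lower at 6 weeks (-0.74 ± 0.15, adjusted p = 0.00453), and both calls held without each array in turn. At 1 week the difference was -0.42 (adjusted p = 0.156).

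Whether the diet difference changed with time was tested directly. The difference at 6 weeks minus that at 1 week was called for 0 of the 10 genes, where 5.27% of all genes were called (2.52% higher and 2.75% lower), with adjusted p from 0.268 for Pdia4 to 0.814 for Hspa5, and 0 had an unadjusted p under 0.05. The F test of any change over the 3 weeks also called 0 (2.36% of all genes), with 0 unadjusted. Weeks differed for 0 of 10 within CDAHFD livers, where 3.11% of all genes were called, and for 0 of 10 within control livers, where 11.5% of all genes were called. Xbp1 within CDAHFD livers and Edem1 within control livers had the lowest unadjusted p, 0.00708 and 0.00943. Counts that differ between weeks are therefore not shown to be different effects.

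The set also varied within groups. Of the 10 genes, 9 were higher in replicate 2 than in replicate 1 of the control livers at 6 weeks, by a median of 0.43 and by 1.20 for Creld2, where the median over all genes was 0.01. In CDAHFD livers at 6 weeks 7 of 10 were higher in replicate 2, by 0.93 for Sdf2l1. Over the 12 arrays the 45 pairs of genes had a median correlation of 0.585 (0.119 to 0.931), and about their group means 0.454 (-0.844 to 0.969). The closest partner of Hspa5 was Sdf2l1 (r = 0.88), that of Xbp1 was Hspa5 (r = 0.849), that of Herpud1 was Xbp1 (r = 0.745) and that of Creld2 was Edem1 (r = 0.841). Outside the set, the genes most like its mean profile over the 12 arrays were Insc (r = 0.939), Rbbp4 (r = 0.935), Bri3bp (r = 0.931), U2af1 (r = 0.93) and Galnt4 (r = 0.928), all descriptions over arrays that share diet, week and slide.

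Brightness of signal moved with the diet difference over all genes. When genes were ordered by mean level, the brightest 10% had a median difference of -0.51, -0.41 and -0.31 at 1, 2 and 6 weeks, and the dimmest 10% had 0.37, 0.49 and 0.62. Hspa5, Hsp90b1, Herpud1, Creld2, Calr and Xbp1 lie in the brightest 10%, where 50.3%, 45.4% and 37.1% of genes fell at 1, 2 and 6 weeks. Of these 6 genes, 2 fell at 1 week, 5 at 2 weeks and 2 at 6 weeks. With each gene set against the median of its own 10% class of level, the set's median was -0.10 at 1 week, -0.43 at 2 weeks and -0.18 at 6 weeks. At 2 weeks all 10 genes lay below the median of their class, from -0.14 for Hspa5 to -0.75 for Creld2, and at 6 weeks Herpud1 (-0.60), Dnajb9 (-0.64), Edem1 (-0.49) and Xbp1 (-0.42) lay furthest below. Above the median of their class were Hspa5 (0.15), Creld2 (0.12) and Xbp1 (0.094) at 1 week, and Hspa5 (0.15), Hsp90b1 (0.090) and Pdia4 (0.19) at 6 weeks. The part of signal brightness in these results was not tested.

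**Figure D4:**
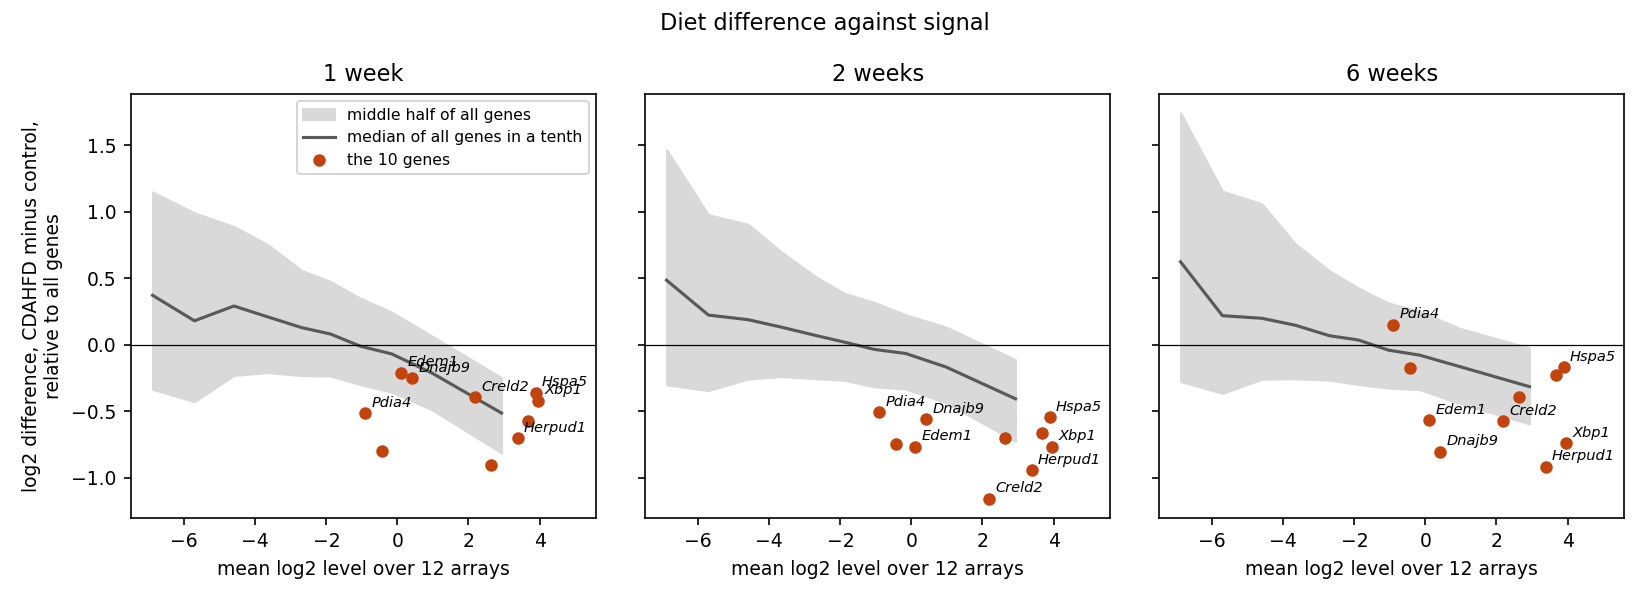
Diet difference (log2, CDAHFD minus control, less the median of all genes, y axis) against mean log2 level over the 12 arrays (x axis) at 1, 2 and 6 weeks. The line joins the medians of all genes in 10 classes of level and the band runs between their quartiles. Relative to the median of their class, the 10 genes (red) had a median of -0.43 at 2 weeks and -0.10 at 1 week. Calr, Sdf2l1 and Pdia4 lay further below it at 1 week than at 2 weeks.

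Quantile normalization between arrays, which forces the same distribution on every array, left 0, 1 and 3 of the 10 genes called at 1, 2 and 6 weeks and 3 in the average, where 14.7%, 15.7%, 18.7% and 28.7% of all genes fell. Edem1 remained called at 2 weeks (-0.69, adjusted p = 0.015) and, with Herpud1 (-0.66, adjusted p = 0.019) and Xbp1 (-0.48, adjusted p = 0.0268), at 6 weeks. At 2 weeks Herpud1 had an adjusted p of 0.0541, Creld2 0.0568, Xbp1 0.156, Hsp90b1 0.38 and Hspa5 0.664 under that scaling, and the average difference of Hspa5 turned to 0.059. Under the percentile over all probes 6, 8, 4 and 10 genes were called in the same 4 comparisons, all lower, where 29.3%, 27.2%, 30.5% and 43.1% of all genes fell. Under median centring 6, 9, 4 and 10 were called, all lower, where 31.7%, 28.2%, 29.5% and 44.4% of all genes fell. Those scalings also change the share of higher genes among all called at 1 week, which was 63.0% as reported, 36.1% with the percentile over all probes, 32.9% with median centring, 33.6% with normexp background and 43.6% with no filter on dim probes. In the average it was 58.3% as reported and 36.3%, 35.04%, 35.3% and 41.8% under the same 4 alternatives. The 6-week calls of Herpud1 and Xbp1 held under every alternative scaling, background, filter and left-out array, and ended only where a 2-fold difference was asked for.

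Most of the other ERAD genes that were called were lower in CDAHFD livers. Of 19 measured, 0 rose and 7 fell at 1 week, 1 rose and 7 fell at 2 weeks, and 1 rose and 6 fell at 6 weeks, with medians of -0.27, -0.29 and -0.20. Among all genes 25.8%, 23.1% and 24.6% rose and 15.2%, 14.6% and 16.1% fell at those weeks. Syvn1, which encodes the HRD1 ligase that Herpud1 recruits, read 2.64 and 2.71 in CDAHFD livers at 2 weeks, against 3.93 and 3.65 in control livers. That is a difference of -1.18 ± 0.18 (adjusted p = 7.84e-04), and at 6 weeks it was -0.86 (adjusted p = 0.00427). Sel1l, the adaptor of HRD1, also fell at 2 weeks (-0.62 ± 0.17, adjusted p = 0.0212) and at 6 weeks (-0.75, adjusted p = 0.00611), though not at 2 weeks without CDAHFD replicate 1 or control replicate 2 (adjusted p = 0.133 and 0.121) or at 6 weeks without control replicate 2 (adjusted p = 0.062).

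Ufd1, a partner of the p97 extraction motor, fell at 2 weeks (-0.77 ± 0.10, adjusted p = 4.23e-04). Derl3, a derlin induced by ER stress, had 0.26 ± 0.69 (adjusted p = 0.759). The ERAD gene that rose at 2 weeks was Edem2, a relative of Edem1 named after its value was seen, with 0.84 (adjusted p = 0.0103).

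Other ER chaperones and folding enzymes did not share one direction. Of 26 measured, 3 rose and 4 fell at 1 week, 3 rose and 4 fell at 2 weeks, and 3 rose and 3 fell at 6 weeks, with medians of -0.22, -0.20 and -0.20. The counts that fell at 1 and 2 weeks are near the share of all genes, 15.2% and 14.6%, and 16.1% of all genes fell at 6 weeks. Among all genes 25.8%, 23.1% and 24.6% rose. At 2 weeks Selenof, a selenoprotein of the ER, rose (0.71 ± 0.12, adjusted p = 7.05e-04) and so did Sdf2 (0.44 ± 0.10, adjusted p = 0.00287), the relative of Sdf2l1. Creld1, the relative of Creld2, fell (-0.80 ± 0.15, adjusted p = 0.00263). Hyou1, the large chaperone that exchanges BiP's nucleotide, had -0.68 ± 0.30 (adjusted p = 0.132) at 2 weeks and was called under quantile normalization (-0.85, adjusted p = 0.0466).

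Among the sensors and other transcription factors, 13 measured, 2 rose and 1 fell at 1 week, 1 rose and 2 fell at 2 weeks, and 1 rose and 2 fell at 6 weeks. The shares of all genes were 25.8%, 23.1% and 24.6% that rose and 15.2%, 14.6% and 16.1% that fell. Ern1, which encodes IRE1, read -2.76 and -2.93 in CDAHFD livers at 2 weeks, against -1.73 and -2.44 in control livers. Its difference was 0.02 (adjusted p = 0.687) at 1 week, -0.82 ± 0.27 (adjusted p = 0.0467) at 2 weeks and -0.91 ± 0.27 (adjusted p = 0.0247) at 6 weeks. The 2-week call of Ern1 ended without any of 9 arrays (adjusted p from 0.0563 to 0.316) and the 6-week call without CDAHFD replicate 1 or control replicate 1 (adjusted p = 0.16 and 0.152). Atf6 had 0.39 (adjusted p = 0.0185) at 1 week, a call that ended without any of 3 arrays. It was called at that week in 10 of 15 alternative settings with all arrays or whole weeks. In those settings its lowest difference was 0.095 and its highest adjusted p 0.377. At 2 weeks Atf6 had 0.05 (adjusted p = 0.612) and Eif2ak3 had 0.11 (adjusted p = 0.597). Of the subunits of NF-Y, the factor that binds the CCAAT part of the ERSE, Nfya and Nfyb went apart at 2 weeks and Nfyc was not called. Nfya had 1.17 ± 0.29 (adjusted p = 0.00738) and Nfyb had -0.81 ± 0.20 (adjusted p = 0.012). Nfya was not well above background on every array. It was called in 11 of 13 alternative settings with all arrays or whole weeks, where its lowest difference was 0.51 and its highest adjusted p 0.255. Nfya was not called without CDAHFD replicate 1 (adjusted p = 0.0533), nor Nfyb without CDAHFD replicate 1 or control replicate 2 (adjusted p = 0.0877 and 0.0858).

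Genes of the PERK and ATF4 arm had positive median differences at every week. Of 12 measured genes 5 rose and 0 fell at 1 week, 4 rose and 1 fell at 2 weeks, and 5 rose and 0 fell at 6 weeks, with medians of 0.72, 0.50 and 0.61, where 25.8%, 23.1% and 24.6% of all genes rose. Atf3, a stress-induced transcription factor, read -1.48 and -0.92 in CDAHFD livers at 2 weeks, against -6.85 and -6.52 in control livers, where it was not well above background. That is at least 38.0-fold higher in CDAHFD livers, counting the lowest signal well above background on each control array, with a fitted adjusted p of 2.06e-06. Nupr1, a stress-induced chromatin protein, rose by 4.39 ± 0.63 (adjusted p = 0.0013) and Sesn2, an ATF4 target, by 0.61 ± 0.14 (adjusted p = 0.00446).

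Ddit3, which encodes CHOP, rose at each week, by 1.37 (adjusted p = 0.00175), 0.87 (adjusted p = 0.022) and 0.80 (adjusted p = 0.0312). Quantile normalization ended the calls at 2 and 6 weeks (adjusted p = 0.0682 and 0.0947). With all arrays or whole weeks, Ddit3 was called in 10 of 14 alternative settings at 2 weeks and in 8 of 13 at 6 weeks. The highest adjusted p in those settings was 0.235 at 2 weeks and 0.116 at 6 weeks. The 2-week call of Ddit3 also ended without CDAHFD replicate 2 or control replicate 1 (adjusted p = 0.165 and 0.127), and the 6-week call without any of 3 arrays of that week (adjusted p from 0.0827 to 0.178). Atf4 mRNA fell at 2 weeks (-0.49 ± 0.12, adjusted p = 0.0144), a call that ended without any of 3 arrays of that week (adjusted p from 0.0713 to 0.0809) and under quantile normalization (-0.10, adjusted p = 0.622). Trib3 and Asns, further ATF4 targets, had 0.40 ± 0.66 (adjusted p = 0.63) and 0.75 ± 0.68 (adjusted p = 0.394).

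**Figure D5:**
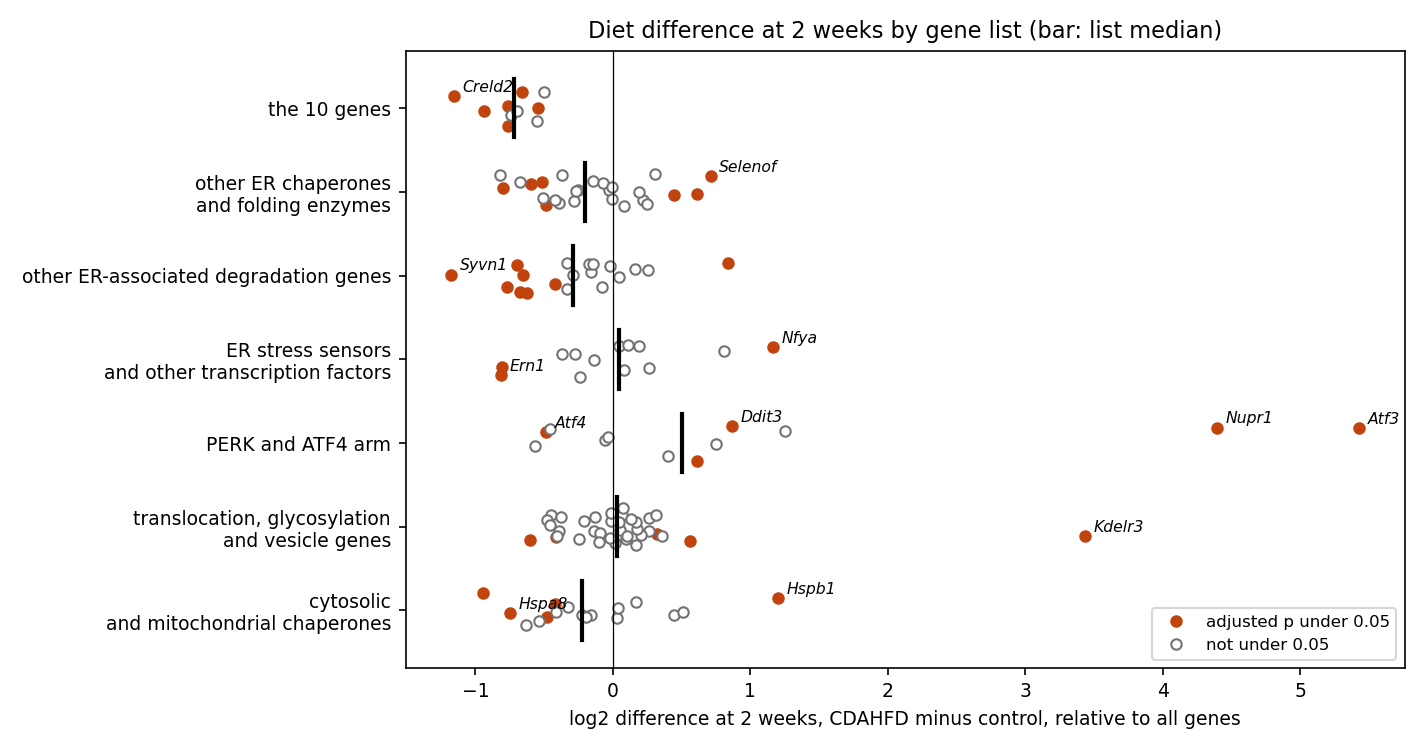
Diet difference at 2 weeks (log2, CDAHFD minus control, less the median of all genes, x axis) of every measured gene in 7 lists (y axis), filled where the adjusted p was under 0.05, with the list median as a bar. The 10 genes lie left of 0 with a median of -0.72, while the PERK and ATF4 list reaches 5.43 for Atf3 and has a median of 0.50. Signal brightness was not taken off in this comparison of lists. Over all genes the brightest 10% had a median of -0.41 and the dimmest 10% had 0.49 at that week.

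Genes of ER translocation, glycosylation and vesicle transport, 36 measured, mostly did not pass the test, with 3 that rose and 2 that fell at 2 weeks and a median of 0.03. Among all genes 23.1% rose and 14.6% fell at that week. Sec62, a translocon subunit, fell (-0.42 ± 0.10, adjusted p = 0.0142), and so did Tram1 (-0.60 ± 0.18, adjusted p = 0.0338). Kdelr3, a receptor that returns ER residents from the Golgi, was not well above background in control livers and was at least 5.27-fold higher in CDAHFD livers (adjusted p = 6.29e-04). Chaperones of the cytosol and mitochondria, 17 measured, had 1 that rose and 4 that fell at 2 weeks, beside the same shares of all genes. Hspa8, the constitutive cytosolic HSP70, fell (-0.75 ± 0.21, adjusted p = 0.0267), with the mitochondrial Hspd1 (-0.48 ± 0.12, adjusted p = 0.0154) and the protease subunit Clpp (-0.95 ± 0.12, adjusted p = 3.21e-04), and Hspb1, a small heat shock protein, rose (1.20 ± 0.25, adjusted p = 0.00317). Leaving out 1 of 2 arrays of that week each ended the calls of Sec62 (adjusted p = 0.1 and 0.0777), Hspa8 (0.194 and 0.182) and Hspd1 (0.13 and 0.0797), and 1 of 5 arrays that of Tram1 (0.0505 to 0.233).

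Some lists of cell type markers moved beside these genes. Among all genes 25.8%, 23.1% and 24.6% rose and 15.2%, 14.6% and 16.1% fell at 1, 2 and 6 weeks. The summed linear level of 8 hepatocyte markers, all well above background, was 194 to 231 in CDAHFD livers at 1 week, against 352 to 464 in control livers. At 2 weeks it was 187 to 203 in CDAHFD livers, against 273 to 310 in control livers, and at 6 weeks 189 to 217 in CDAHFD livers, against 246 to 259 in control livers. Of the 8, 7, 5 and 2 fell at 1, 2 and 6 weeks, with medians of -0.91, -0.65 and -0.35. Of 6 macrophage markers 3, 5 and 5 rose, with summed levels of 15.6 to 25.2 in CDAHFD livers over the 3 weeks, against 4.95 to 9.62 in control livers. Of 6 stellate cell and myofibroblast markers 5 rose at each week, with summed levels of 4.75 to 6.52 in CDAHFD livers, against 0.65 to 1.45 in control livers. Of 4 neutrophil markers 2, 3 and 3 rose, with summed levels of 1.15 to 2.15 in CDAHFD livers, against 0.22 to 0.41 in control livers. All 3 erythroid markers fell at each week, with summed levels of 4.58 to 6.77 in CDAHFD livers, against 12.5 to 16.5 in control livers. Of 5 endothelial markers 1 rose at each week, and 3 fell, all at 6 weeks. Their summed levels overlapped at 1 and 2 weeks. At 6 weeks they were 5.53 to 6.20 in CDAHFD livers, against 8.34 to 8.49 in control livers. Of 4 T and NK cell markers 2, 1 and 3 rose and 1, 0 and 0 fell. Of 4 cholangiocyte markers 0, 0 and 1 rose and 1, 0 and 0 fell. The 1 pancreatic acinar marker measured was not called at any week.

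Plasma cells also hold much ER, and 5 of 7 of their and B cells' markers were measured, with Tnfrsf17 and Cd79a not well above background in any whole group. Of the 5, 3 rose and 1 fell at 1 week, 1 rose and 1 fell at 2 weeks, and 1 rose and 0 fell at 6 weeks. Their median differences were 0.60, 0.30 and 0.43. The sums of their linear levels, in which bright markers weigh most, went the other way. The 5 summed to 0.81 to 0.99 in CDAHFD livers at 1 week, against 1.32 to 1.45 in control livers. At 2 weeks they summed to 0.92 to 1.05 in CDAHFD livers, against 1.30 to 1.45 in control livers, and at 6 weeks the diets overlapped, with 1.15 to 1.51 in CDAHFD livers, against 1.36 to 1.60 in control livers. Jchain was not well above background in CDAHFD livers at 1 week, and Mzb1 and Prdm1 were not well above background in control livers. Fewer cells of a type and less RNA per cell cannot be told apart in whole liver, and the part of cell makeup in the differences of the 10 genes was not tested.

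The diet differences can be set beside the promoter elements. Of the 5 genes with an ERSE or ERSE-II, 2, 4 and 1 fell at 1, 2 and 6 weeks, with medians of -0.57, -0.70 and -0.39. Of the 5 without, 0, 2 and 2 fell, with medians of -0.42, -0.74 and -0.56. Among all genes 15.2%, 14.6% and 16.1% fell at those weeks. The 5 genes with an element all lie in the brightest 10%, where 50.3%, 45.4% and 37.1% of genes fell. Of the 5 without, only Xbp1 lies there. The division thus largely follows signal brightness, and no test was made of it.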

How the data were processed

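Liver RNA of CDAHFD and control mice was hybridised to 12 one-colour arrays, 2 per group. Per the file headers, the deposited intensities had their background subtracted and spatial trends removed by Agilent Feature Extraction, with no normalization across arrays. That software is version 11.5.1.1 in the headers and 10.7 in the submitters' processing notes. Accessions were matched to RefSeq names of GRCm38.p6, which named 28664 of 55681 probes, and the headers' older build was not used for coordinates.

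Intensities were taken as log2, outlier spots were left out, spots of a probe were averaged, and values were scaled to the 75th percentile of each array, computed from 20114 probes detected well above background everywhere. A gene was tested if some group had one of its probes well above background on 2 of 2 arrays, and its brightest probe was used. Limma 3.58.1 in R 4.3.3 (lmFit, eBayes with trend and robust) fitted 6 group means, which left 6 residual degrees of freedom, and tested 2-sided with Benjamini-Hochberg adjustment over 13891 genes. The script was tested on simulated data.

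The members and gene lists were chosen with earlier results of these data known. All 10 members were described, and of each other list the genes with the lowest adjusted p at 2 weeks, up to 3, with Hyou1, Sel1l, Derl3, Ern1, Atf6, Eif2ak3, Atf4, Ddit3, Trib3, Asns and Hspa8. Of these, 1 gene that the rule names is not reported here. Alternatives were other scalings, backgrounds, filters, probe rules and fits, leaving out each array, and the replicate number as a block. The normexp alternative used median spot signals with an offset of 50.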

Additional observations from a re-analysis of the deposited data

How the results depend on the processing

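Of the 10 genes, those called at 1 week, 2 as reported, became 6 with the percentile over all probes, 6 with median centring, 0 with quantile normalization, 1 with normexp background, 0 without the variance trend, 4 with the arrays of week 1 alone, 4 with slide 1 alone and 0 where a 2-fold difference was required. Of all genes, 15.2% fell at 1 week as reported, and 29.3%, 31.7%, 14.7%, 21.2%, 14.2%, 15.6%, 16.1% and 5.27% in those settings in turn. At 2 weeks, 6 (14.6% of all genes fell) became 1 with quantile normalization (15.7%) and 1 at 2-fold (4.15%). In the other settings with all arrays or whole weeks the count ran from 4 with normexp (12.4%) to 9. The 9 were reached with median centring (28.2%) and with the arrays of week 2 alone (14.9%). At 6 weeks, 3 (16.1%) became 0 at 2-fold (4.8%). In the other settings of that kind it ran from 2, as with no filter on dim probes (9.72%), to 4, as with median centring (29.5%). In the average, 8 (25.6%) became 3 with quantile normalization (28.7%) and 0 at 2-fold (4.05%). It became 5 with the controls of 2 and 6 weeks in place of those of 1 week (23.0%). With the percentile over all probes (43.1%) and median centring (44.4%) it was 10. Leaving out 1 array gave 0 to 2 at 1 week, 2 to 6 at 2 weeks, 2 to 4 at 6 weeks and 7 to 10 in the average, 0 to 0 for both tests of a change over weeks, and 0 to 1 for weeks within CDAHFD livers and within control livers.

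Over all genes, 5688, 5237 and 5646 called at 1, 2 and 6 weeks became 2452, 2452 and 2762 at 2-fold, 3375 and 3754 at 2 and 6 weeks with normexp, and 3068 to 6185, 3396 to 5776 and 3967 to 5749 without 1 array. The average gave 8506, with 2515 at 2-fold and 7621 to 8577 without 1 array. The difference at 6 weeks minus 1 week gave 732, with 434 at 2-fold, 408 with later controls and 131 to 945 without 1 array. Any change over weeks gave 328, with 159 without the trend and 23 to 606 without 1 array. Weeks within CDAHFD livers gave 432, with 283 without the trend and 21 to 836 without 1 array, and within control livers 1601, with 740 with normexp and 392 to 2135 without 1 array. The share of higher calls at 2 and 6 weeks, 61.2% and 60.4%, was 38.0% and 39.2% with median centring and 39.2% and 38.1% with the percentile over all probes.

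Among named results called as reported or under the alternative, 3 turned sign: the average of Hspa5 with quantile normalization (0.059), and at 1 week Selenof with later controls (0.61) and Ufd1 with the mean of its probes (0.14). The cause was not tested. Deviations of arrays with the same replicate number correlated from -0.14 to 0.22 between groups, so the numbers were not taken to pair samples. With the replicate number as a block the counts of the 10 genes were 2, 6, 3 and 8, with Dnajb9 called at 6 weeks (adjusted p = 0.0494) in place of Edem1 (0.0555). Outlying samples were not tested for in groups of 2 arrays, and the number of arrays limits the precision.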
